A study of Mus musculus with 12 samples.

Results

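Mouse microglia kept for 6 h with recombinant Hevin were compared with microglia kept for 6 h in medium alone, gene by gene. The comparison rests on 8 of the 12 libraries of the series, 4 labelled Hevin and 4 labelled Media, and each Hevin library was set against the Media library that carries the same group number. Of 14541 genes listed, the 10906 with at least 1 FPKM in at least 4 of these 8 libraries were tested. FPKM relates the reads of a gene to its length and to the size of the library. The microglia came from the forebrains of wild-type pups aged 7 to 9 days, were captured by their surface protein CD11b on magnetic beads, and were plated at 40000 to 80000 cells per well. Hevin cells received 500 nM of the protein, Media cells the same volume of growth medium, and a further group of 4 libraries, used here only at the end, received 50 ng/mL of lipopolysaccharide (LPS). The labels name no other recombinant protein as a control among these samples and do not say how the Hevin was made. Nor do they tie the libraries to particular animals or cultures, and the p-values measure the spread between these libraries only.

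Hevin, encoded by Sparcl1, is a matricellular glycoprotein that astrocytes secrete and that is best known for promoting the formation of excitatory synapses. Microglia, the resident macrophages of the brain, depend on signalling through the colony-stimulating factor receptor CSF1R for survival and on transforming growth factor β (TGF-β) for their mature gene programme. TGF-β is stored in latent form, is released with the help of integrins, binds the receptor TGFBR2, which recruits TGFBR1, and acts through SMAD transcription factors, which among other targets switch on genes that restrain the pathway. Lipopolysaccharide, in contrast, acts through Toll-like receptor 4 and NF-kB and switches on cytokine and chemokine genes.

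Whole reads recovered from the FPKM values put the depth, over the listed genes, at 18343996 to 25910349 in Media and 21389784 to 27361665 in Hevin. The Media and the Hevin library of one number are called pairs 1 to 4 here. Libraries of the same number deviated together from their group means, with correlations of 0.771, 0.704, 0.782 and 0.516 across genes for numbers 1 to 4. By this measure numbers 3 and 4 were not distinct. Hevin 4 correlated with Media 3 at 0.524, and Hevin 3 with Media 4 at 0.442. The test holds the number as a block. In a principal component analysis the first component held 35.3% of the variance and set numbers 1 and 2 apart from 3 and 4, and the second held 31.4% and set all 4 Media libraries apart from all 4 Hevin libraries. All 12 markers of microglia and macrophages were present, with a summed level of 2926 to 3419 FPKM in Media and 3347 to 4146 in Hevin. Of 13 astrocyte markers 5 stayed under 1 FPKM in every library, among them Aqp4. Their sum was 55.9 to 109.8 FPKM in Media and 27.3 to 70.5 in Hevin, with 1 of 6 tested markers lower and 0 higher. That marker was Gja1, the gene of connexin 43, at 60.7 ± 14.0 FPKM in Media against 25.3 ± 6.61 in Hevin, and without it the sum was 6.21 to 35.2 FPKM in Media and 6.15 to 37.3 in Hevin. Markers of neutrophils and monocytes summed to 2066 FPKM in Media 2 and 1930.4 in Hevin 2, against 42.0 to 80.2 in the other 6 libraries. Endothelial and mural markers went with the number, from 33.3 FPKM in Media 1 to 173 in Hevin 3. The part of these other cells in the results was not tested. In bulk RNA, fewer cells of a type and less RNA per cell cannot be told apart.

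In all, 3177 genes, 29.1% of those tested, differed between Hevin and Media at a limma adjusted p under 0.05, 1531 higher in Hevin (14.0%) and 1646 lower (15.1%). Without the replicate block the counts were 937 (8.59%), 539 (4.94%) and 398 (3.65%), all of them also called with the block. The 4 Hevin libraries lay above all 4 Media libraries for 1014 genes (9.30%) and below them for 836 (7.67%). In 23.9% of the genes the Hevin library was the higher in all 4 pairs, and in 23.8% the lower. Most of the called changes were small: 69.4% were under 0.5 on the log2(FPKM + 1) scale, used for all log2 values here, and 139 higher and 71 lower genes changed by at least 1 log2 unit. Leaving out pair 3 gave 972 higher and 906 lower genes, and leaving out pair 2, whose libraries hold the neutrophil markers, 1291 and 1428. Of the tested genes, 18 reached 1 FPKM in Hevin libraries only and 11 in Media libraries only, and 16 and 11 of these were called, genes that had to differ to enter the test. A gene said below to rise or fall passed limma's test at an adjusted p under 0.05, and levels are means ± SD of 4 libraries. When the libraries were scaled to the same FPKM sum, 60.6% of the called genes were higher in place of 48.2%.

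The direction differed with the level of the gene. Among the 534 genes whose higher group mean was at least 100 FPKM, 39.9% were lower in Hevin and 20.04% higher. Among the 3195 genes under 5 FPKM, 5.76% were lower and 10.4% higher. Genes of 20 to 100 FPKM had 24.5% lower and 15.2% higher, and those of 5 to 20 FPKM 12.2% and 15.2%. The plot of level against change shows this tilt, with the largest rises, such as Pmepa1 and Kcna3, starting from a few FPKM or less. The shares over all genes that stand beside the gene lists below are not matched for level.

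**Figure D1:**
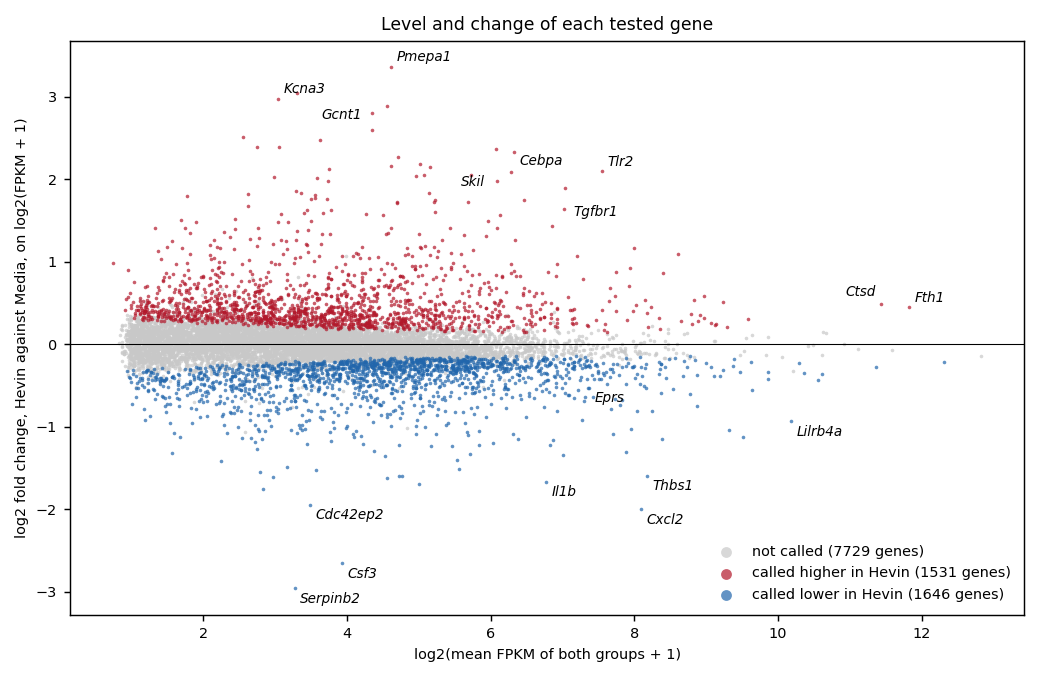
Each point is one of the 10906 tested genes, with the log2 of its mean FPKM over both groups plus 1 on the horizontal axis and its log2 fold change, Hevin against Media, on the vertical axis; red and blue mark the 1531 genes called higher and the 1646 called lower. The most abundant genes lean to the lower side, whereas the largest rises, led by Pmepa1, belong to genes of low or middle level.

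By gene list, the members called higher were most frequent among homeostatic microglia genes, TGF-β feedback genes, integrins and lysosomal hydrolases. Those called lower were most frequent among cytokines, chemokines, aminoacyl-tRNA synthetases and transcription factors of the AP-1 and EGR families. Respiratory chain genes had no member called in either direction.

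**Figure D2:**
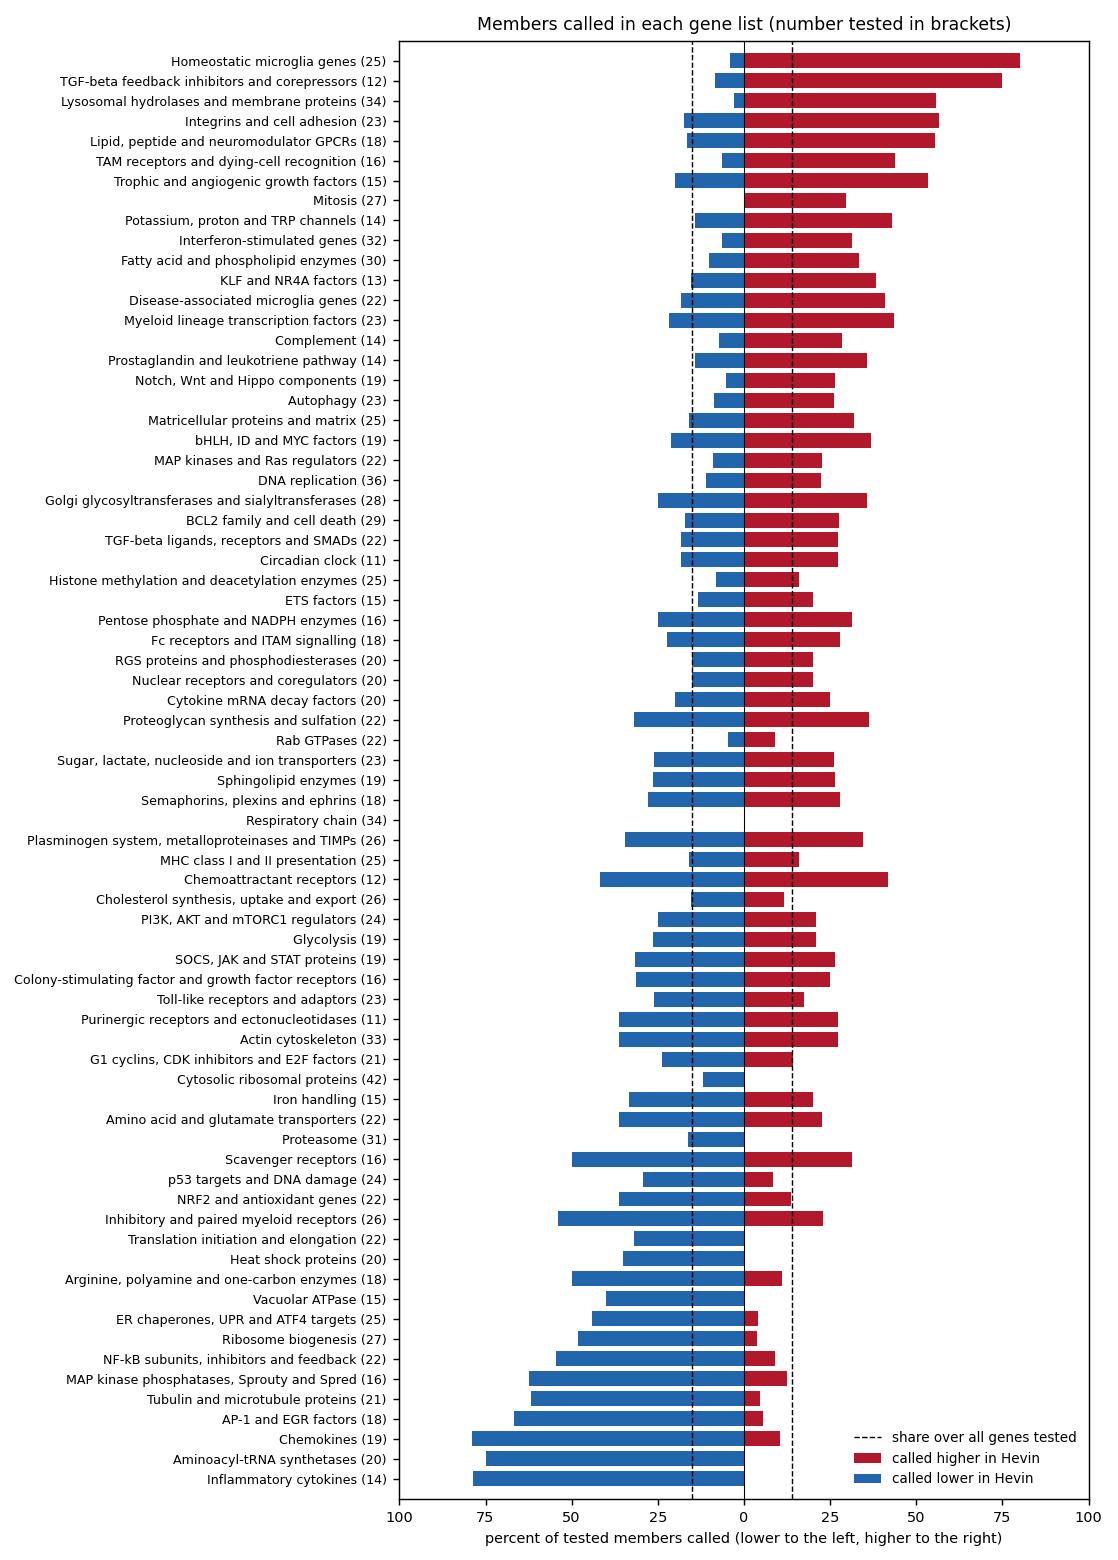
Bars give, for each gene list, the percent of its tested members called higher (red, to the right) or lower (blue, to the left) in Hevin, in order of the difference between these percents, and dashed lines mark the shares over all tested genes, 14.0% and 15.1%. Homeostatic microglia genes have the longest red bar, with 20 of 25 members, and the cytokine, chemokine and aminoacyl-tRNA synthetase lists reach furthest to the left.

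Genes that TGF-β signalling is known to induce as its own restraints formed the list with the largest positive median change. Of 12 tested, 9 rose and 1 fell, with a median log2 change of 0.80 against 0.0035 over all genes, and without the block 8 rose and 0 fell. Pmepa1 (chr2:173224458-173276533, minus strand, GRCm38) encodes a membrane protein that binds SMADs and keeps them from the receptor. It measured 3.23, 3.72, 2.83 and 3.59 FPKM in Media 1 to 4 and 41.8, 42.2, 46.9 and 43.3 in Hevin 1 to 4. Every Hevin library was thus over 10 times as high as every Media library, and the log2 change was 3.36 ± 0.08 (limma adjusted p = 1.77e-06).

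Spsb1, whose product marks a TGF-β receptor for degradation, rose from 1.66 ± 0.282 to 12.98 ± 1.29 FPKM. The corepressor genes Skil and Ski rose from 26.8 ± 4.87 to 108 ± 11.5 and from 21.7 ± 2.28 to 50.2 ± 4.29 FPKM. Smad7, the inhibitory SMAD, rose from 4.23 ± 1.44 to 16.4 ± 3.16 FPKM, and Ldlrad4, which like Pmepa1 sequesters SMADs, from 5.16 ± 2.41 to 19.2 ± 5.33. None of these 6 genes had overlapping groups. All 4 Hevin libraries lay above all 4 Media libraries in 8 of the 12 tested members of the list, and in 9.30% of all genes. Smaller rises came in Tgif1, from 87.1 ± 9.42 to 118 ± 14.6 FPKM, and in the ubiquitin ligase gene Smurf2, from 21.8 ± 1.66 to 28.6 ± 2.73. Smad6 stayed under the level needed for testing, at 0.0580 ± 0.0560 FPKM in Media against 0.934 ± 0.183 in Hevin.

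The ligands, receptors and SMADs themselves were mixed, with 6 of 22 higher and 4 lower, and 3 and 0 without the block. Without pair 3 there were 2 falls. Tgfbr1, the type I receptor gene (chr4:47353222-47414931, plus strand), measured 82.6, 71.1, 42.9 and 51.8 FPKM in Media 1 to 4 and 259, 236, 135 and 155 in Hevin. The groups did not overlap although numbers 1 and 2 were higher than 3 and 4 in both, and the log2 change was 1.64 ± 0.05 (limma adjusted p = 2.59e-06). Tgfbr2, the receptor gene for binding the ligand, stood at 23.2 ± 3.70 FPKM in Media against 23.7 ± 4.13 in Hevin, a log2 difference of 0.02 ± 0.06 with a 95% interval of -0.12 to 0.17 (limma adjusted p = 0.8). Among receptors for related ligands, Bmpr2 and Acvr2b rose by 0.67 ± 0.07 and 0.62 ± 0.09 on the log2 scale. Acvr2b, at 0.565 ± 0.0899 FPKM in Media against 1.4 ± 0.113 in Hevin, was under 1 FPKM in every Media library and was tested only through its Hevin libraries. Smad3, a SMAD activated by the receptor, did not pass, at 8.79 ± 2.33 FPKM in Media against 9.68 ± 3.29 in Hevin (limma adjusted p = 0.334). Tgfb1 rose from 77.6 ± 3.70 to 97.7 ± 11.5 FPKM, a call that was lost without the block (adjusted p = 0.0724) and in a fit of all 12 libraries (adjusted p = 0.0746).

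Itgav and Itgb5, which together encode an integrin that binds latent TGF-β, rose from 34.4 ± 6.20 to 86.2 ± 12.04 and from 11.2 ± 1.41 to 38.7 ± 4.07 FPKM. Lrrc32, whose product tethers latent TGF-β to the cell surface, measured 39.9, 40.2, 60.6 and 61.0 FPKM in Media 1 to 4 and 19.3, 18.7, 28.1 and 26.2 in Hevin. It fell in all 4 pairs, by 1.09 ± 0.05 on the log2 scale (limma adjusted p = 1.26e-05). Among widely known TGF-β targets, the matrix gene Tgfbi rose from 16.7, 16.8, 21.8 and 21.6 FPKM in Media to 89.9, 53.6, 86.7 and 109 in Hevin. Thbs1, the gene of thrombospondin 1, itself an activator of latent TGF-β, went the other way, with 422, 479.7, 415 and 415 FPKM in Media and 174, 156, 118 and 128 in Hevin, a log2 change of -1.60 ± 0.08 (limma adjusted p = 1.64e-05).

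**Figure D3:**
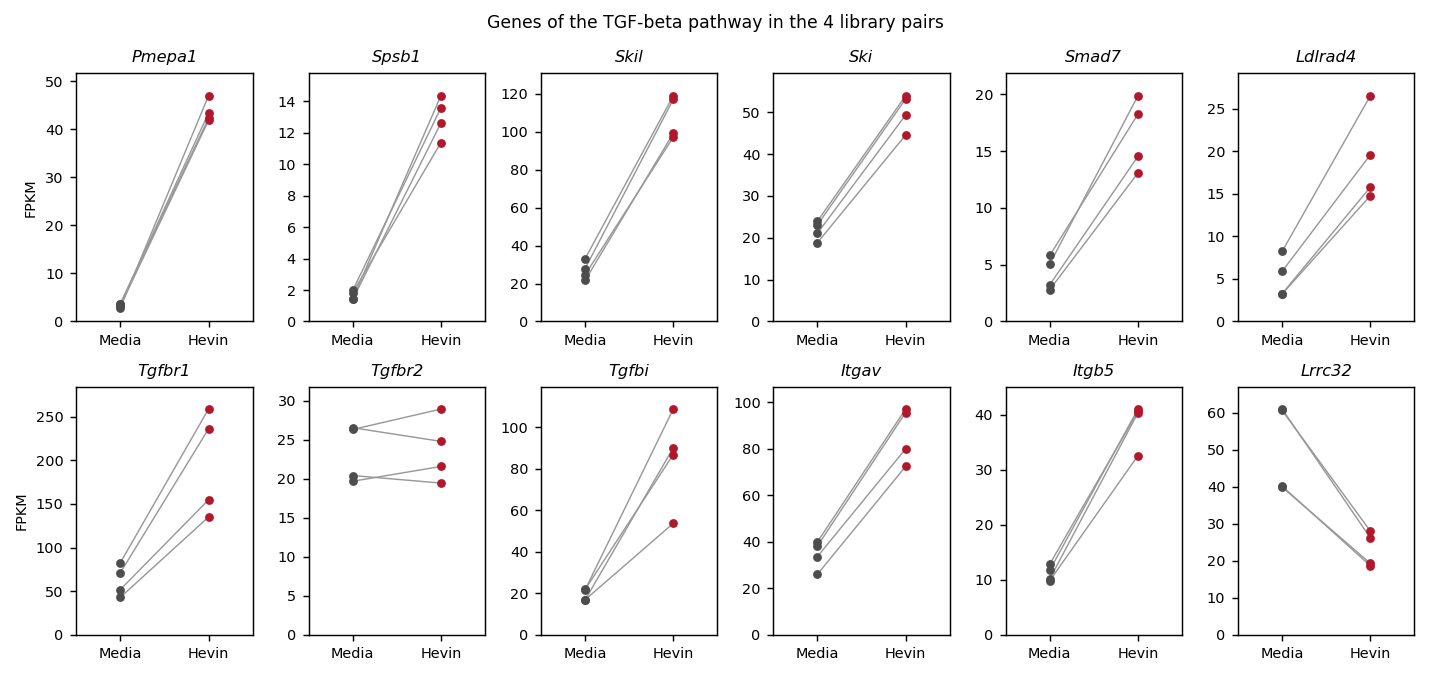
For 12 genes of the TGF-β pathway the FPKM of each Media library is joined to that of the Hevin library of the same number, with a linear axis of its own from 0 in each panel. Pmepa1 to Ldlrad4, Tgfbr1, Tgfbi, Itgav and Itgb5 rise in all 4 pairs, Lrrc32 falls in all 4, and Tgfbr2 shows no common direction.

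Genes that set adult microglia apart from other macrophages rose as a group. Of 25 tested members 20 rose and 1 fell, a share of 80.0% against 14.0% of all genes, with a median log2 change of 0.44. Without the block 10 rose and 0 fell, and 16 to 17 rose when 1 pair was left out. Golm1, which encodes a Golgi membrane protein, rose from 12.1 ± 0.968 to 32.5 ± 4.79 FPKM. The colony-stimulating factor receptor gene Csf1r rose from 239 ± 29.5 to 433 ± 40.0 FPKM and Tmem119, a widely used microglial marker, from 1.39 ± 0.245 to 2.52 ± 0.472. The rises of P2ry12 and Sall1, a purinergic receptor and a microglial transcription factor, were smaller, from 10.4 ± 4.59 to 14.7 ± 6.49 and from 12.8 ± 5.06 to 15.8 ± 5.35 FPKM, and both were lost without the block (adjusted p = 0.506 and 0.567). The macrophage gene Mrc1, which encodes the mannose receptor and marks border macrophages more than microglia, fell from 161 ± 16.8 to 71.7 ± 11.97 FPKM. Markers of border macrophages summed to 882 to 1038 FPKM in Media and 682 to 909 in Hevin, with 2 of 9 tested markers higher and 4 lower.

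Transcription factors of the myeloid lineage had 10 of 23 members higher and 5 lower, and 4 and 1 without the block. Leaving out pair 1 gave 3 falls and leaving out pair 3 or 4 gave 2 falls. Cebpa, which encodes a factor that drives myeloid differentiation, had 40.8, 25.6, 22.2 and 27.9 FPKM in Media 1 to 4 and 135, 142, 101 and 120.2 in Hevin (chr7:35119293-35121928, plus strand). The lowest Hevin library was above the highest Media library, and the log2 change was 2.08 ± 0.10 (limma adjusted p = 1.34e-05). Runx3 and Irf8, both factors of macrophage development, rose from 3.41 ± 1.73 to 11.6 ± 1.81 and from 25.8 ± 3.16 to 45.4 ± 6.57 FPKM. Sall3, a relative of Sall1, rose from 3.06 ± 1.13 to 7.43 ± 3.01 FPKM. Spi1, the gene of the myeloid master factor PU.1, fell from 247 ± 19.5 to 191 ± 20.6 FPKM, a call lost without the block (adjusted p = 0.0504).

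Other transcription factors with clear changes came from several families. Elk3, an ETS family repressor, rose from 7.97 ± 0.814 to 39.1 ± 3.97 FPKM, and Klf10, a gene induced early by TGF-β, from 25.7 ± 3.29 to 39.9 ± 2.55. Kdm1a, which encodes a histone demethylase, rose from 26.2 ± 2.63 to 51.0 ± 7.51 FPKM, while Kdm6b, another demethylase gene, fell from 27.2 ± 3.12 to 16.3 ± 0.951. Pparg, the gene of a lipid-sensing nuclear receptor, fell from 7.73 ± 1.27 to 2.96 ± 0.653 FPKM and Myc from 24.9 ± 5.93 to 15.1 ± 2.21. The families as wholes stayed nearer the background: 3 of 15 ETS factors rose and 2 fell, 4 of 20 nuclear receptors and coregulators rose and 3 fell, and 4 of 25 histone-modifying enzymes rose and 2 fell. Without pair 3 or 4, 1 histone enzyme gene rose.

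The voltage-gated potassium channel gene Kcna3 changed most among the ion channels. It measured 0.960, 0.734, 0.616 and 1.13 FPKM in Media 1 to 4 and 14.9, 13.1, 13.3 and 12.9 in Hevin, with a log2 change of 2.98 ± 0.09 (limma adjusted p = 3.23e-06). Every Media library was near 1 FPKM and every Hevin library above 12. A neighbouring long noncoding RNA gene on the same strand, AI504432, moved with it, from 1.31, 1.27, 0.928 and 1.03 FPKM in Media to 18.0, 16.8, 15.7 and 15.9 in Hevin. Kcna3 lies at chr3:107036169-107038070, plus strand and AI504432 at chr3:107039504-107054347, plus strand (GRCm38, GENCODE M21), 1433 bases apart, and an annotated gene on the opposite strand, Gm27008, spans both. In that annotation neither Kcna3 nor AI504432 shares exonic sequence with another gene on either strand. Whether the authors' counting used strand is not given in the sources used here, and the assignment of reads to these neighbours was not tested. Of 14 channel genes tested, 6 rose and 2 fell, with 2 and 1 without the block. Of the 14, 1 gene other than Kcna3 reached 1 FPKM in 1 group only and had to differ to enter the test. Kcnj10, an inward rectifier, rose from 0.983 ± 0.215 to 2.19 ± 0.117 FPKM.

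G protein-coupled receptors for lipids and peptides had 10 of 18 members higher and 3 lower, and 3 and 1 without the block. The rises numbered 6 without pair 3. The falls numbered 1 without pair 1, 3 or 4. S1pr1, a receptor for sphingosine 1-phosphate, rose from 39.6 ± 3.21 to 135 ± 14.3 FPKM, Gpr84, a receptor for fatty acids of medium length, from 60.1 ± 14.1 to 169 ± 56.1, and Cmklr1, the chemerin receptor, from 27.1 ± 8.09 to 58.5 ± 15.3. Calcrl, the receptor for calcitonin gene-related peptide and adrenomedullin, had 8.65, 6.36, 12.4 and 12.6 FPKM in Media and 1.86, 2.5, 2.44 and 1.95 in Hevin. It fell in every pair, by 1.75 ± 0.17 on the log2 scale (limma adjusted p = 0.000258). Calcrl needs a partner of the RAMP family to reach the cell surface, and Ramp3 fell as well, from 49.6 ± 5.63 to 20.6 ± 3.95 FPKM. Another partner gene, Ramp2, stood at 4.57 ± 2.63 FPKM in Media against 5.0 ± 3.57 in Hevin and did not pass (limma adjusted p = 0.675).

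Receptors for chemoattractants split, with 5 of 12 higher and 5 lower, and 2 and 3 without the block. Cxcr4, the receptor for CXCL12, rose from 55.7 ± 15.9 to 204 ± 26.2 FPKM. Among those that fell were Fpr1, which binds formyl peptides, from 6.50 ± 1.03 to 2.72 ± 0.378 FPKM, C5ar1, for the complement fragment C5a, from 201 ± 15.8 to 107 ± 15.7, and Ccr1, for CCL3 and CCL5, from 22.7 ± 7.46 to 10.1 ± 1.5. Among 11 genes of purinergic signalling 3 rose and 4 fell, with 1 and 3 without the block. P2ry6, the receptor for UDP, rose from 7.87 ± 0.961 to 42.5 ± 9.98 FPKM, and the ectonucleotidase gene Entpd1, which breaks down extracellular ATP, fell from 43.1 ± 5.56 to 25.6 ± 4.37.

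Receptors for recognising dying cells had 7 of 16 members higher and 1 lower, and 5 and 0 without the block. Lrp1, a large endocytic receptor, had 43.7, 37.5, 30.4 and 34.1 FPKM in Media and 110.0, 91.0, 86.3 and 105 in Hevin, without overlap, a log2 change of 1.41 ± 0.06 (limma adjusted p = 1.03e-05). Axl, a TAM receptor kinase, rose from 22.4 ± 3.56 to 55.5 ± 8.85 FPKM and Havcr2, which binds phosphatidylserine, from 17.2 ± 2.3 to 45.0 ± 3.73. Scavenger receptors divided, with 5 of 16 higher and 8 lower, and 3 and 3 without the block. Olr1 rose from 1.15 ± 0.549 to 10.3 ± 3.12 FPKM, and Msr1 fell from 69.5 ± 12.7 to 40.4 ± 6.91.

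Integrins and adhesion molecules had 13 of 23 members higher and 4 lower, and 4 and 1 without the block. Besides Itgav and Itgb5, Itga5, the fibronectin receptor subunit, rose from 76.5 ± 9.43 to 143 ± 30.4 FPKM, and the tight junction gene F11r from 16.0 ± 1.56 to 24.5 ± 2.98. The tetraspanin gene Cd53 fell from 387 ± 47.4 to 221 ± 27.2 FPKM. In the list of inhibitory and paired receptors, a group that tunes the activation of myeloid cells, 14 of 26 fell and 6 rose, and 7 and 2 without the block. Cd300ld fell from 48.0 ± 8.28 to 14.0 ± 0.793 FPKM, Dok2, an adaptor that restrains kinase signalling, from 40.2 ± 18.3 to 12.5 ± 5.84, Pirb from 8.16 ± 0.895 to 3.06 ± 0.663 and Cd200r1, the receptor for the neuronal protein CD200, from 28.3 ± 3.49 to 19.1 ± 2.12. Lilrb4a fell from 1516 ± 134 to 801 ± 162 and Lilr4b from 998 ± 56.0 to 462 ± 87.3 FPKM. These last are close paralogs that an overlapping gene model joins, so their separate levels are uncertain.

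Enzymes that build glycans changed in both directions. Of 28 Golgi glycosyltransferases 10 rose and 7 fell, and 7 and 4 without the block. Gcnt1, which starts the core 2 branch of O-glycans, had 4.19, 3.38, 4.13 and 4.64 FPKM in Media 1 to 4 and 41.9, 32.0, 29.9 and 34.3 in Hevin (chr19:17326141-17372844, minus strand). The groups were far apart, with a log2 change of 2.80 ± 0.09 (limma adjusted p = 3.23e-06). B4galt1, a galactosyltransferase that extends such branches, rose from 31.8 ± 2.49 to 91.1 ± 3.36 FPKM, and Mgat5 and Mgat4a, which add branches to N-glycans, from 10.6 ± 2.18 to 19.6 ± 2.36 and from 14.4 ± 1.66 to 28.1 ± 3.45. St3gal5, which makes the ganglioside GM3, fell from 19.97 ± 2.51 to 12.5 ± 2.26 FPKM, and Galnt3, which starts O-glycans, from 3.95 ± 0.828 to 2.02 ± 0.0749.

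Proteoglycan genes were likewise divided, with 8 of 22 higher and 7 lower, and 6 and 2 without the block. Without pair 1 or 3 there were 4 falls. The sulfotransferase genes Chst1, Chst2 and Chst3 rose from 3.54 ± 2.05 to 11.004 ± 3.62, from 0.382 ± 0.345 to 2.63 ± 0.700 and from 0.747 ± 0.268 to 2.57 ± 0.431 FPKM, and Extl3, which starts heparan sulfate chains, from 19.3 ± 2.87 to 44.4 ± 5.56. Chst2 was under 1 FPKM in every Media library and was tested only through its Hevin libraries. Cspg4, the core protein of the NG2 proteoglycan, had 1.6, 1.75, 3.38 and 4.13 FPKM in Media and 14.3, 12.1, 25.3 and 28.6 in Hevin. Cspg4 is also a marker of oligodendrocyte precursors, whose 9 listed markers summed to 17.2 to 24.2 FPKM in Media and 29.9 to 46.6 in Hevin. Without Cspg4 the sum was 15.4 to 21.2 FPKM in Media and 17.8 to 20.4 in Hevin, and 1 of the 4 tested markers, Cspg4 itself, was called higher. Another precursor marker, Pdgfra, stood at 0.826 ± 0.627 FPKM in Media against 0.832 ± 0.463 in Hevin. The syndecan gene Sdc4 fell from 73.9 ± 6.84 to 54.0 ± 5.26 FPKM.

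Lysosomal hydrolases and membrane proteins rose in 19 of 34 cases and fell in 1, with a median log2 change of 0.23, and in 9 and 0 without the block. Ctsd, the protease cathepsin D and one of the most abundant genes of these cells, had 2616, 2495, 1957 and 2156 FPKM in Media and 3525, 3490.3, 2806 and 3130.1 in Hevin. All 4 Hevin libraries were above the Media libraries. Lgmn, the gene of the protease legumain, rose from 373 ± 56.5 to 539 ± 78.3 FPKM, Ctsh from 18.4 ± 3.23 to 29.8 ± 2.93, and the glycosidase gene Man2b1 from 56.5 ± 5.27 to 80.6 ± 8.07. Subunits of the vacuolar ATPase, the pump that acidifies lysosomes, had 0 of 15 members higher and 6 lower, and 0 were called without the block, where 0 were higher and 4 lower at an unadjusted p under 0.05. Leaving out pair 3 gave 3 falls. Atp6v1h fell from 140.4 ± 18.2 to 98.0 ± 19.7 FPKM with the block (adjusted p = 0.000779, and 0.0568 without it). Autophagy genes stayed closer to the background, with 6 of 23 higher and 2 lower. Wipi1 and Ulk1, both acting early in autophagosome formation, rose from 1.86 ± 0.406 to 3.66 ± 1.15 and from 9.05 ± 0.935 to 15.1 ± 2.35 FPKM.

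Chemokine genes fell in 15 of 19 cases and rose in 2, with a median log2 change of -0.99, and in 7 and 2 without the block. Cxcl2, which attracts neutrophils, had 287, 541, 547 and 377 FPKM in Media and 98.0, 111, 109 and 101 in Hevin. The 4 Hevin libraries were close together and all under the Media libraries, and the log2 change was -2.003 ± 0.12 (limma adjusted p = 2.92e-05). Its relatives Cxcl1 and Cxcl3 fell from 40.2 ± 32.1 to 10.7 ± 5.67 and from 183 ± 20.7 to 72.4 ± 14.0 FPKM, the former lost without the block (adjusted p = 0.178). The macrophage chemokine genes Ccl3 and Ccl9 fell from 862 ± 242 to 415 ± 82.6 and from 74.0 ± 20.4 to 28.9 ± 8.13 FPKM. The members that rose were Cxcl16, a membrane-bound chemokine that doubles as a scavenger receptor, from 34.3 ± 5.67 to 103 ± 15.1 FPKM, and Cxcl14, from 0.537 ± 0.185 to 4.34 ± 0.734. Cxcl14 was under 1 FPKM in every Media library and was tested only through its Hevin libraries.

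A match to the NF-kB site, searched as GGGANNTTC and as GAANNTCCC for the other strand in the 250 bases before the start of a gene, stood in 291 of the 8303 tested genes with a promoter in RefSeq, or 3.50%. It stood in 4 of the 12 chemokine genes with a promoter: Cxcl1, Cxcl2, Cxcl3 and Cxcl10. The last of these did not pass the test. The match also stood in 3 of the 18 homeostatic microglia genes with a promoter, P2ry12, Sall1 and Rnase4, all of which rose, and in Tlr2, which rose as well. A match is a description of the letters only. The promoters of the 3 that fell are given because they carry it alike, 5′ to 3′ on the strand of the gene from the RefSeq table on GRCm38.p6, with the match in capitals. In each the matches of both strands overlap, so that they form 1 run of 11 capitals.
Cxcl1 (chr5:90890995-90891244, plus strand): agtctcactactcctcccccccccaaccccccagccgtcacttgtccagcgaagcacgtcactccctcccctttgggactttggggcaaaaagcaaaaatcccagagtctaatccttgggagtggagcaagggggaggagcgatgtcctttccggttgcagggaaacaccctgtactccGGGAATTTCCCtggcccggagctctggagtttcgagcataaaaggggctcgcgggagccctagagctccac
Cxcl2 (chr5:90903649-90903898, plus strand): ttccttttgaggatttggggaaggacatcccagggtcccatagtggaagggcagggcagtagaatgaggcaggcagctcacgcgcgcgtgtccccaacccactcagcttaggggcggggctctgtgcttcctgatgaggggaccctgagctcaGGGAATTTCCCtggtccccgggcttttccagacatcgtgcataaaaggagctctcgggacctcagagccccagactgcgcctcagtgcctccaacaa
Cxcl3 (chr5:90785851-90786100, plus strand): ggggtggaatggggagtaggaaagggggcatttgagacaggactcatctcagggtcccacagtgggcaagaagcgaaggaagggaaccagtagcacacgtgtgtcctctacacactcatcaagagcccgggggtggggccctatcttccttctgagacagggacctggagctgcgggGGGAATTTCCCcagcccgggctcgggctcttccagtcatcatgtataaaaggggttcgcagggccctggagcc

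Cytokine genes fell in 11 of 14 cases and rose in 0, with a median log2 change of -0.73, and in 4 and 0 without the block. Il1b had 188, 183, 154 and 132 FPKM in Media and 57.5, 82.4, 36.6 and 37.0 in Hevin. It fell in each pair, with a log2 change of -1.67 ± 0.13 (limma adjusted p = 8.59e-05), and it overlaps an annotated antisense transcript. Csf3, a granulocyte growth factor, differed widely within groups, from 7.15, 15.4, 56.3 and 24.3 FPKM in Media to 1.24, 1.53, 5.46 and 2.34 in Hevin. Tnf fell from 61.7 ± 9.11 to 34.6 ± 5.39 FPKM and Tnfsf9, a costimulatory ligand, from 5.17 ± 0.603 to 2.49 ± 0.929. The antagonist gene Il1rn fell too, from 333 ± 119 to 163 ± 57.5 FPKM, a call lost without the block (adjusted p = 0.0708).

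Subunits, inhibitors and feedback genes of NF-kB had 12 of 22 members lower and 2 higher, and 5 and 0 without the block. Ikbke, an inducible kinase gene of the pathway, fell from 12.7 ± 2.91 to 5.68 ± 0.614 FPKM, the inhibitor gene Tnip3 from 5.48 ± 1.49 to 2.28 ± 0.709, Nfkbiz, a nuclear cofactor, from 23.5 ± 3.44 to 14.7 ± 1.23 and the subunit gene Rela from 69.7 ± 2.49 to 58.1 ± 2.67. AP-1 and EGR factors fell in 12 of 18 cases and rose in 1, and in 2 and 1 without the block. Fosl1 fell from 8.77 ± 1.91 to 3.39 ± 0.737 FPKM and Batf from 5.69 ± 0.589 to 2.82 ± 0.847, whereas Fos rose from 53.5 ± 6.36 to 76.6 ± 7.64. MAP kinase phosphatases and Sprouty proteins, which are induced by MAP kinase signalling and restrain it, fell in 10 of 16 cases and rose in 2, and in 3 and 1 without the block. Dusp5 and Dusp8 fell from 108 ± 27.7 to 49.2 ± 6.65 and from 13.5 ± 2.20 to 6.69 ± 1.15 FPKM, and Dusp6 rose from 23.2 ± 2.28 to 52.2 ± 8.57.

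Toll-like receptors and adaptors showed no common direction, with 4 of 23 higher and 6 lower, and 3 and 3 without the block. The falls numbered 3 without pair 3. Tlr2, the receptor gene for bacterial lipoproteins, had 122, 55.6, 54.1 and 58.8 FPKM in Media and 388, 245, 287 and 278 in Hevin. The lowest Hevin library was well above the highest Media library, Media 1. Its partner gene Tlr1 fell from 15.5 ± 1.43 to 7.79 ± 0.803 FPKM, and the adaptor gene Ticam1 from 29.8 ± 2.05 to 18.6 ± 0.972. Tlr4 fell from 66.3 ± 7.03 to 48.1 ± 0.945 FPKM.

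In the prostaglandin and leukotriene pathway 5 of 14 rose and 2 fell, and 2 and 2 without the block, and the genes of the 2 cyclooxygenases went opposite ways. Ptgs1, the constitutive form, had 8.94, 17.2, 8.44 and 11.2 FPKM in Media and 44.7, 46.4, 45.3 and 59.1 in Hevin, a log2 change of 2.04 ± 0.15 (limma adjusted p = 7.15e-05). Ptgs2, the inducible form, had 332, 402, 319 and 286 FPKM in Media and 178, 150.2, 112 and 109 in Hevin, a log2 change of -1.30 ± 0.10 (limma adjusted p = 7.61e-05). For neither gene did the groups overlap. Tbxas1, which makes thromboxane from the cyclooxygenase product, rose from 29.2 ± 8.16 to 55.9 ± 10.7 FPKM. Complement genes had 4 of 14 higher and 1 lower, and 2 and 1 without the block, with C1qa and C1qc, parts of the initiating complex C1q, higher by 0.53 ± 0.05 and 0.38 ± 0.06 on the log2 scale.

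Aminoacyl-tRNA synthetases, the enzymes that load amino acids onto tRNAs, fell in 15 of 20 cases and rose in 0, a share of 75% against 15.1% of all genes. Of all tested genes of 20 to 100 FPKM 24.5% fell, and of those of 100 FPKM and over 39.9%. The median log2 change was -0.30, so the falls were common but small. Without the block 10 fell, and when 1 pair was left out 10 to 14 fell. In 13 of the 20 genes all 4 Hevin libraries lay below all 4 Media libraries, against 836 of all 10906 genes (7.67%). Eprs, the synthetase gene for glutamate and proline, had 214, 216, 177 and 170.3 FPKM in Media and 145, 154, 118 and 122 in Hevin, a log2 change of -0.52 ± 0.05 (limma adjusted p = 0.000154). Aars, for alanine, had 200.1, 239, 248 and 228 FPKM in Media and 163, 175, 181 and 174 in Hevin, a log2 change of -0.40 ± 0.05 (limma adjusted p = 0.000791). For neither gene did the groups overlap, although Media 1 came near the Hevin level of Aars, which shares exonic sequence with Exosc6 on the same strand. Nars and Gars fell from 276 ± 37.9 to 196 ± 17.0 and from 133 ± 14.1 to 101 ± 5.69 FPKM. Dars, Kars, Mars, Qars and Vars did not pass, with log2 changes from -0.22 for Vars to 0.12 for Dars.

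**Figure D4:**
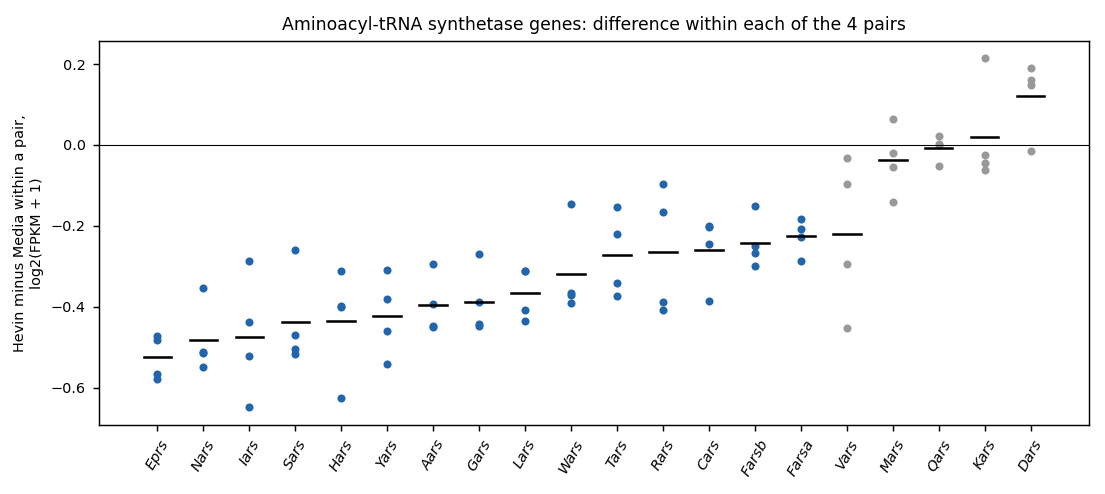
Points give, for each of the 20 aminoacyl-tRNA synthetase genes, the difference in log2(FPKM + 1) between the Hevin and the Media library of each of the 4 pairs, bars the mean, and blue marks the 15 genes called lower. All 4 pairs are below 0 in each called gene, from Eprs at the left to Farsa.

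Genes of the unfolded protein response and of ATF4, a factor that responds to amino acid shortage, fell in 11 of 25 cases and rose in 1, and in 4 and 0 without the block. Herpud1, which acts in protein degradation at the endoplasmic reticulum, fell from 48.3 ± 10.3 to 25.8 ± 3.01 FPKM, Ddit3, the gene of the stress factor CHOP, from 129 ± 20.4 to 87.9 ± 10.5, and Atf4 itself from 669 ± 34.8 to 538 ± 43.8. Of 18 enzymes of arginine, polyamine and one-carbon metabolism 9 fell and 2 rose, and 4 and 2 without the block. Mthfd2 and Psat1, mitochondrial folate and serine synthesis genes, fell from 185 ± 11.7 to 139 ± 10.9 and from 123 ± 12.1 to 95.4 ± 5.40 FPKM. Asns, asparagine synthetase, fell from 332 ± 61.8 to 231 ± 28.8 FPKM, a call lost without the block (adjusted p = 0.0751). The members that rose were Arg1 and Arg2, the arginase genes, from 0.658 ± 0.251 to 9.10 ± 4.31 and from 2.22 ± 0.704 to 4.24 ± 0.611 FPKM, the latter lost without pair 3 (adjusted p = 0.0505). Among amino acid transporters 8 of 22 fell and 5 rose, and 3 and 2 without the block. Slc1a5, a glutamine carrier, had 27.1, 24.5, 21.0 and 23.7 FPKM in Media and 10.8, 10.4, 9.47 and 11.5 in Hevin, without overlap (log2 change -1.12 ± 0.06, limma adjusted p = 2.41e-05). Slc7a5 and Slc7a1, carriers of large neutral and of basic amino acids, fell from 95.0 ± 8.26 to 60.5 ± 4.78 and from 59.4 ± 5.43 to 41.0 ± 3.44 FPKM, and Slc7a8, another neutral carrier, rose from 50.1 ± 5.87 to 90.6 ± 18.0.

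The composite site of C/EBP and ATF factors, searched as TGATGNAA and as TTNCATCA for the other strand over the same 250 bases, stood in 205 of 8303 promoters, or 2.47%. It stood in 3 of the 12 synthetase genes with a promoter, Aars, Gars and Tars, and all 3 fell. Tars was lost without the block (adjusted p = 0.152) and without pair 3 (adjusted p = 0.0568). In the list of the unfolded protein response and ATF4 it stood in 3 of 22, Herpud1, Chac1 and Atf3, of which Atf3 did not pass, and Chac1 was lost without the block (adjusted p = 0.141). It also stood in the promoter of Asns. The site was not particular to these lists. It stood in 3 of 13 G protein-coupled receptor genes for lipids and peptides, among them Calcrl, which fell, and none of the 3 rose. Of 17 sterol genes 3 carried it, none of them called. Carriers in other lists went both ways. Among those that rose were Kdm1a and members of the amino acid transporter, paired receptor and matrix lists. Promoters of 4 of the genes that fell are given with the match in capitals, again 5′ to 3′ on the strand of the gene from the RefSeq table on GRCm38.p6.
Aars (chr8:111033592-111033841, plus strand): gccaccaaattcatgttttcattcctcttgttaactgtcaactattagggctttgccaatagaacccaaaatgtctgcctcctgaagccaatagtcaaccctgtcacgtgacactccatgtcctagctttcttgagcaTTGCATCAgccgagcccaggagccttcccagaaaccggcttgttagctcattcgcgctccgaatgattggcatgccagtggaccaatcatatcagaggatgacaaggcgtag
Gars (chr6:55037751-55038000, plus strand): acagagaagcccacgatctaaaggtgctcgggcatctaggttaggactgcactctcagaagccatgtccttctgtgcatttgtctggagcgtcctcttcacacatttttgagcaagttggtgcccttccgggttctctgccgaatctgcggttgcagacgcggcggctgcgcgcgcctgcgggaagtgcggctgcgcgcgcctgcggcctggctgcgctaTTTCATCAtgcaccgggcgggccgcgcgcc
Asns (chr6:7693210-7693459, minus strand): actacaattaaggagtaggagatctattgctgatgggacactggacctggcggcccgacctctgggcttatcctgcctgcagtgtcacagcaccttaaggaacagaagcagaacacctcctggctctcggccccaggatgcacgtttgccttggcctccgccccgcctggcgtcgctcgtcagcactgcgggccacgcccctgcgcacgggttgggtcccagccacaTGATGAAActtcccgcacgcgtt
Herpud1 (chr8:94386179-94386428, plus strand): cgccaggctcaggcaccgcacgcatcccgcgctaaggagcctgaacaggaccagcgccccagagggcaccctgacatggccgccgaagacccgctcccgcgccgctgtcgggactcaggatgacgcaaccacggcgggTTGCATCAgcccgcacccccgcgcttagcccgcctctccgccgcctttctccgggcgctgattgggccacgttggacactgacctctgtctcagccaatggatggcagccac
For comparison, the short SMAD element CAGAC, or GTCTG for the other strand, stood in 3739 of 8303 promoters, or 45.0%, and in 4 of the 8 TGF-β feedback genes with a promoter in the table. Over the lists its share ran from 2 of 14 AP-1 and EGR genes (14.3%) to 14 of 18 homeostatic microglia genes (77.8%).

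Genes of ribosome biogenesis fell in 13 of 27 cases and rose in 1, but in 1 and 0 without the block. With the libraries scaled to the same FPKM sum 7 fell and 1 rose. Without pair 1 or 3 there were 6 falls and without pair 2 there were 7 falls. The gene called both with and without the block was Rrs1, which fell from 17.3 ± 1.21 to 13.4 ± 1.20 FPKM. It was lost in a fit of all 12 libraries (adjusted p = 0.132). Cytosolic ribosomal proteins had 0 of 42 higher and 5 lower, a share of 11.9% that lies under the 15.1% of all genes. The log2 change was negative in 39 of the 42, with a median of -0.17. Without the block 0 were higher and 0 lower, where 0 were higher and 3 lower at an unadjusted p under 0.05. Leaving out pair 2 gave 8 falls and leaving out pair 3 or 4 gave 1 fall, as did scaling to the same FPKM sum. Translation factors had 7 of 22 lower and 0 higher, and 1 and 0 without the block. The falls numbered 2 without pair 3. Eif1 fell from 311 ± 4.64 to 239 ± 29.4 FPKM. Proteasome subunits had 5 of 31 lower and 0 higher, near the background. Without pair 3 there were 3 falls. Heat shock genes had 7 of 20 lower and 0 higher, and 0 were called without the block, where 0 were higher and 2 lower at an unadjusted p under 0.05.

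Tubulins and microtubule proteins fell in 13 of 21 cases and rose in 1, and in 2 and 1 without the block. Leaving out pair 3 gave 8 falls, and scaling to the same FPKM sum gave 9 falls. Tubb2a and Tubb2b, which encode close paralogs among the β-tubulins, fell from 92.2 ± 8.82 to 53.6 ± 3.54 and from 42.5 ± 5.30 to 26.0 ± 3.0 FPKM, with a split between them that is uncertain, and the kinesin gene Kif13b rose from 9.03 ± 1.20 to 15.6 ± 0.790. Genes of the actin cytoskeleton went both ways, with 9 of 33 higher and 12 lower, and 1 and 3 without the block. Cotl1, an actin-binding protein gene, rose from 169 ± 23.4 to 323 ± 49.4 FPKM, and Tln1, which links integrins to actin, fell from 175 ± 12.4 to 119 ± 12.98. Actg1 fell from 1764 ± 134 to 1377 ± 81.7 FPKM, while Actb stood at 3156 ± 366 FPKM in Media against 2994 ± 343 in Hevin and did not pass (limma adjusted p = 0.43), although it did as lower under quantile normalization (adjusted p = 0.0105). Dock8, an activator of CDC42 and known for its part in leukocyte migration, rose from 4.57 ± 1.17 to 11.4 ± 2.92 FPKM, and Cdc42ep2, an effector of CDC42, fell from 17.0 ± 7.53 to 3.37 ± 0.772. Rac2, the Rac gene of blood cells, fell from 30.6 ± 3.78 to 17.3 ± 4.22 FPKM.

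Of 34 respiratory chain genes limma called 0 with the block and 0 without it, and limma with voom weights on the recovered reads called 0 higher and 1 lower. At an unadjusted p under 0.05, 4 were higher and 3 lower with the block and 0 and 0 without it. The median log2 change was 0.013. Scaling the libraries to the same FPKM sum called 3 of them higher. Glycolysis had 4 of 19 higher and 5 lower, and 1 and 1 without the block. The rises numbered 2 without pair 3. The falls numbered 3 without pair 1 or 2 and 2 without pair 3 or 4. Pfkfb3, a regulator of the pathway, rose from 19.0 ± 5.61 to 43.8 ± 10.4 FPKM, and the enzyme gene Pgk1 fell from 77.5 ± 12.5 to 51.9 ± 3.69. H6pd, which supplies NADPH inside the endoplasmic reticulum, had 10.6, 10.8, 9.07 and 11.7 FPKM in Media and 44.9, 40.5, 58.1 and 66.0 in Hevin. The groups lay far apart, with a log2 change of 2.19 ± 0.12 (limma adjusted p = 2.06e-05). Ucp2, a carrier of the inner mitochondrial membrane, rose from 156 ± 16.2 to 353 ± 37.1 FPKM. Fatty acid and phospholipid enzymes had 10 of 30 higher and 3 lower, and 5 and 0 without the block. Without pair 1 or 4 there was 1 fall. Cpt1a, the entry enzyme of fatty acid oxidation, rose from 40.2 ± 7.0 to 72.8 ± 4.86 FPKM. Among sterol genes 3 of 26 rose and 4 fell, or 11.5% and 15.4%, near the 14.0% and 15.1% of all genes. Leaving out pair 3 gave 2 falls. Those that rose were the cholesterol exporter genes Abca1 and Abcg1 and Mylip, a ubiquitin ligase gene, with log2 changes of 0.79 ± 0.05, 0.82 ± 0.06 and 0.82 ± 0.05. Smpdl3a, a phosphodiesterase related to acid sphingomyelinase, rose from 16.2 ± 2.21 to 55.7 ± 3.81 FPKM.

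In iron handling 3 of 15 rose and 5 fell, and 2 and 1 without the block. The falls numbered 3 without pair 1, 2 or 4 and 2 without pair 3. Fth1, the ferritin heavy chain and among the most abundant genes of these libraries, had 3277, 2999, 3023 and 2900.4 FPKM in Media and 4562, 4368, 3782 and 4006 in Hevin, higher in each pair (log2 change 0.45 ± 0.06, limma adjusted p = 0.00159). Its processed copies in the genome make that level uncertain. Hfe, which limits iron uptake, rose from 5.94 ± 1.06 to 14.0 ± 1.79 FPKM. Antioxidant genes under NRF2 had 8 of 22 lower and 3 higher, and 2 and 0 without the block. Without pair 1 or 3 there was 1 rise, and without pair 3 there were 5 falls. Prdx1, a peroxiredoxin gene, fell from 1736 ± 208 to 1279 ± 85.4 FPKM.

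Of 36 replication genes 8 rose and 4 fell, and 3 and 1 without the block. Leaving out pair 1 gave 3 rises and leaving out pair 2, 3 or 4 gave 5 rises, and leaving out pair 2 or 3 gave 2 falls. Mcm6 and Mcm7, subunits of the replicative helicase, rose from 8.59 ± 0.503 to 16.4 ± 0.477 and from 1.65 ± 0.305 to 3.10 ± 0.553 FPKM, and Uhrf1, which maintains DNA methylation, fell from 4.74 ± 0.661 to 2.70 ± 0.293. Of 27 mitosis genes 8 rose and 0 fell, and 1 and 0 without the block. The log2 change was positive in 26 of the 27, with a median of 0.21. The rises numbered 2 without pair 1, 4 without pair 2 or 4 and 3 without pair 3. Genes of cell death had 8 of 29 higher and 5 lower, and 3 and 2 without the block. The protective gene Bcl2 rose from 1.01 ± 0.194 to 3.50 ± 0.362 FPKM and Bmf, a promoter of apoptosis, from 4.03 ± 0.902 to 10.9 ± 1.03. Casp4, an inflammatory caspase gene, and Ripk3, a kinase gene of necroptosis, fell from 69.3 ± 14.9 to 32.0 ± 7.30 and from 68.2 ± 14.98 to 32.0 ± 6.95 FPKM.

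Interferon-stimulated genes had 10 of 32 higher and 2 lower, but 0 and 0 without the block, where 0 were higher and 0 lower at an unadjusted p under 0.05. Without pair 1 there were 6 rises, without pair 3 there were 4 rises and without pair 4 there were 5 rises, and without pair 4 there were 4 falls. Antigen presentation had 4 of 25 higher and 4 lower, near the background in both directions. Leaving out pair 3 or 4 gave 2 rises, and leaving out pair 3 gave 2 falls. Rab GTPases had 2 of 22 higher and 1 lower, under the background. Trophic and angiogenic factors had 8 of 15 higher and 3 lower, and 4 and 1 without the block. Pdgfa and Vegfa, growth factors for mesenchymal and for endothelial cells, rose from 27.5 ± 6.58 to 69.3 ± 8.08 and from 21.9 ± 3.13 to 47.2 ± 6.02 FPKM, and Gdf15, a stress-induced factor, fell from 78.3 ± 26.8 to 33.8 ± 14.7. Proteases and inhibitors of the plasminogen system and the metalloproteinases had 9 of 26 higher and 9 lower, and 1 and 3 without the block. Mmp13, a collagenase gene, fell from 32.1, 45.8, 31.0 and 28.3 FPKM in Media to 15.4, 13.5, 7.64 and 6.97 in Hevin. Serpinb2, an inhibitor of plasminogen activators, fell, from 4.10, 19.6, 28.7 and 13.3 FPKM in Media to 0.475, 0.574, 1.91 and 0.796 in Hevin. Its exons overlap those of Serpinb10 on the same strand.

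Some of the largest changes belonged to genes outside these lists. Pald1, a gene of vascular development, rose from 4.76 ± 0.336 to 33.9 ± 3.87 FPKM and Cpd, a carboxypeptidase of the trans-Golgi network, from 25.5 ± 2.48 to 132 ± 9.01. Gas7, which shapes membranes and actin, fell from 16.8 ± 4.39 to 5.07 ± 0.859 FPKM. Sparcl1, which encodes Hevin, measured 9.89 ± 5.50 FPKM in Media against 10.0 ± 6.11 in Hevin (log2 change -0.0023 ± 0.11, limma adjusted p = 0.99).

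Set beside the LPS libraries, genes changed by Hevin stood on either side of their LPS levels. The LPS and Hevin groups share no library, and 57.9% of 11242 genes differed between them in a fit with the same block, 29.9% higher in Hevin and 28.0% lower. The FPKM values summed to 414956 to 430248 in the LPS libraries against 298271 to 327160 in the Hevin libraries. The part of this offset in the differences, above all in small ones with LPS higher, was not tested. Kcna3, Gcnt1, Cebpa and Lrp1, all raised in Hevin, stood at 1.62 ± 0.445, 1.24 ± 0.335, 19.8 ± 7.64 and 24.8 ± 7.54 FPKM in LPS, each lower than in Hevin, by log2 differences of 2.49 ± 0.10, 3.99 ± 0.10, 2.65 ± 0.12 and 1.98 ± 0.10 (limma adjusted p from 1.15e-09 to 6.46e-08). Tlr2 was 274 ± 47.5 FPKM in LPS, and its difference between Hevin and LPS of 0.13 ± 0.12 did not pass (limma adjusted p = 0.4). Cxcl16 was higher in LPS than in Hevin, at 155 ± 8.23 FPKM (limma adjusted p = 0.000411). Cxcl2, Mmp13 and Ptgs2, lower in Hevin than in Media, reached 3680.1 ± 1371, 516 ± 72.2 and 2053 ± 420.5 FPKM in LPS. Ptgs1 stood at 6.85 ± 2.40 FPKM in LPS and was higher in Hevin by 2.71 ± 0.16. Slc1a5 stood at 20.9 ± 4.82 FPKM in LPS and Aars at 250.1 ± 11.9, both higher than in Hevin (limma adjusted p = 2.44e-05 and 3.69e-05). Thbs1 stood at 254 ± 24.4 FPKM in LPS, between the Hevin and the Media libraries.

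**Figure D5:**
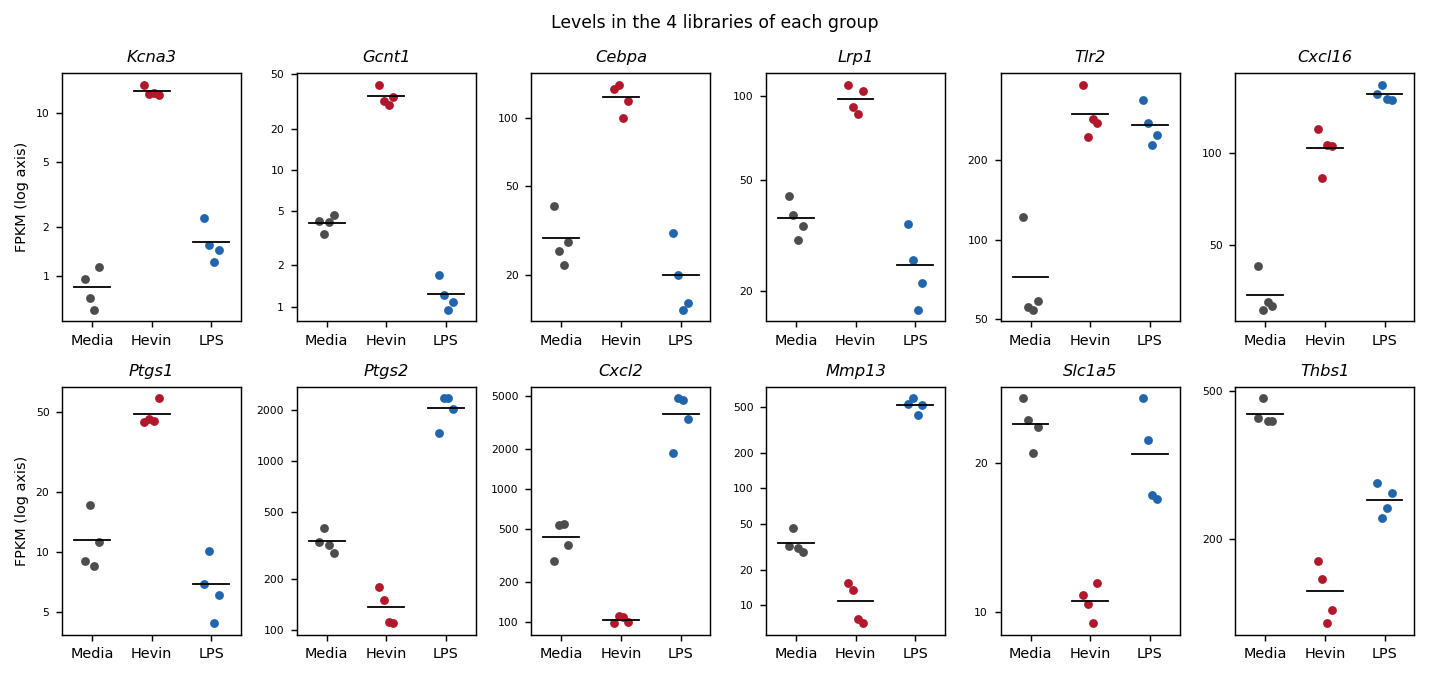
FPKM of 12 genes in the 4 libraries of Media, Hevin and LPS, each panel with a log axis of its own and a bar at the group mean. Kcna3, Gcnt1, Cebpa, Lrp1 and Ptgs1 are highest in Hevin, Cxcl2, Mmp13 and Ptgs2 are lowest in Hevin and highest in LPS, and Tlr2 overlaps between Hevin and LPS.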

How the data were processed

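RNA of mouse microglia was sequenced in 4 Hevin, 4 Media and 4 LPS libraries. The authors deposited 1 table of FPKM values per gene and library. Per the submitters' processing notes, FastQC 0.11.7, Trimmomatic 0.39, Bowtie2 2.3.5.1, featureCounts of Subread 1.6.3, R 4.0.0 and edgeR 3.30.3 were used with the mouse build mm10. Which annotation was counted, and whether by strand, is not given in the sources used here. All 14541 rows gave whole reads (tolerance 0.1 read) in the 12 libraries. The table has 22 date-like symbols, of which 18 were tested and none is named.

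Hevin was compared with Media with limma (version 3.58.1, R 4.3.3), fitted to log2(FPKM + 1) with a variance trend, over the 10906 genes of at least 1 FPKM in 4 of 8 libraries. The replicate number was a block, and calls were made at a Benjamini-Hochberg adjusted p under 0.05. The number comes from the labels, and the table's columns carry a shared group number. Deviations from the group means correlated at 0.771, 0.704, 0.782 and 0.516 for equal numbers, all over 0.1. Hevin 4 and Media 3, of unlike number, correlated at 0.524. A fold change on this scale understates the change of genes with low FPKM. Hevin and LPS were compared in a fit of all 12 libraries. Gene lists are described by counts and medians beside those of all genes, with no set test.

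The members and the lists were chosen with earlier results of these data known. Named genes were the 12 largest changes in each direction among called genes of at least 5 FPKM whose groups do not overlap, the 12 largest rises and falls in mean FPKM among called genes of at least 100 FPKM, the 4 called genes of smallest p in each list, a few genes of interest (Sparcl1, Tgfbr1, Tgfbr2, Tgfb1, Smad3, Smad7, Csf1r, Tlr4, Actb and Gapdh) and the leading marker of each other cell type. Arg2, Atf3, Atf4, Ccr1, Cd200r1, Cd53, Chst3, Ctsh, Cxcl1, Cxcl10, Cxcl14, Cxcl3, Dars, F11r, Galnt3, Kars, Ldlrad4, Lrrc32, Man2b1, Mars, Mcm7, Mgat5, Myc, P2ry12, Pdgfra, Pirb, Psat1, Qars, Ramp2, Ramp3, Rela, Rnase4, Sall1, Sall3, Sdc4, Smad6, Smurf2, Spi1, St3gal5, Tars, Tgif1, Ticam1, Tmem119, Tnfsf9 and Vars were chosen after their values were seen.

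Gene positions are from GENCODE M21 on GRCm38, promoters from a RefSeq table on GRCm38.p6. Of the named genes, 15 share exonic sequence with another annotated gene on the same strand, among them Ctsd and Ramp2, and 37 on the opposite strand, among them Csf1r, Cebpa, Cxcl16, Il1b, Ptgs1 and Thbs1. Reads of such genes could not be told apart. The test was checked on simulated data. Results for some genes are not reported here.

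Alternatives were other pseudocounts, filters and scalings, a fit with no trend, with no block or of all 12 libraries, voom weights on the recovered reads, a fold threshold and leaving out each pair.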

Additional observations from a re-analysis of the deposited data

Results flagged for a closer look

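In 26 of 398 groups of 4 libraries of the named genes, 1 library stood far from the other 3, by the gap to its nearest neighbour over the range of the group. Chance alone gives such a gap in about 1 in 20 groups. In Media the high libraries were number 4 for Arg1 (1.03 FPKM), number 1 for Cxcl16 (42.7 FPKM), Sall1 (20.3 FPKM) and Tlr2 (122 FPKM), and number 2 for Pdgfa (37.4 FPKM) and Thbs1 (479.7 FPKM). Mcm6 was low in Media 4, at 7.84 FPKM.

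Hevin 2 was far above the other Hevin libraries for Atp6v1h (127 FPKM), Ddit3 (103.5 FPKM), Gdf15 (55.8 FPKM), Mcm7 (3.92 FPKM), Tmem119 (3.23 FPKM) and Wipi1 (5.37 FPKM), and far below them for Axl (42.3 FPKM) and Sdc4 (46.2 FPKM). Hevin 1 stood high for Jak2 (48.6 FPKM), Lilr4b (592 FPKM), Lilrb4a (1042 FPKM) and Sall1 (23.7 FPKM) and low for Arg2 (3.33 FPKM) and Tars (37.5 FPKM). Hevin 3 stood low for Itgb5 (32.6 FPKM) and Tlr4 (46.7 FPKM). Hevin 4 stood high for Ptgs1 (59.1 FPKM) and low for Ctnnb1 (294 FPKM) and Galnt3 (1.90 FPKM).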

How the results depend on the processing

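With the replicate block 3177 genes were called between Hevin and Media, 1531 higher and 1646 lower, and with no replicate block 937, 539 and 398. The pairing by replicate number thus moved the counts by more than 1.5 times, and the cause was not tested beyond the correlation of same-numbered libraries. A call that also needs an absolute log2 change of at least 1 left 210 genes, 139 higher and 71 lower, by its construction. Leaving out 1 pair at a time gave 1878 to 2719 called genes, 972 to 1291 higher and 906 to 1428 lower. The lowest counts came without pair 3. Of the 3177 genes, 2297, 2474, 1842 and 2220 were also called in the same direction without pair 1, 2, 3 and 4. Under the other pseudocounts, filters and scalings, without the trend, in the fit of all 12 libraries and with voom weights, the counts stayed within 1.5 times. No named gene that was called reversed its direction, and reversals of uncalled genes were not counted. Of the calls on named genes, 12 were lost without the block, 3 without pair 3, 1 without pair 4, 2 in the fit of all 12 libraries and 1 under quantile normalization. Farsa, called lower, was among those lost without the block (adjusted p = 0.153), without pair 3 (0.0556) and without pair 4 (0.0512). Cxcl10, not called, was called higher without pair 2 (adjusted p = 0.0203). Of the named genes, 174 differed between Hevin and LPS with the block and 163 without it. FPKM values of the 8 libraries limit the precision through their number, and the pairs cannot be tied to animals or cultures.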

Other observations

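Genes known to rise in microglia around amyloid plaques changed in both directions. Of 22 tested members 9 rose and 4 fell, and 6 and 2 without the replicate block, against 14.0% and 15.1% of all genes called higher and lower. Besides Axl and Ctsd, Ank, which encodes a pyrophosphate transporter, rose from 55.5 ± 11.8 to 103 ± 17.9 FPKM. Trem2, a receptor gene for lipids that those cells depend on, rose from 71.9 ± 10.4 to 112 ± 14.6 FPKM. Lgals3, the gene of galectin 3, fell from 1063 ± 95.7 to 789 ± 45.3 FPKM, a call lost under quantile normalization (adjusted p = 0.0824). Lpl, lipoprotein lipase, fell from 584 ± 150.0 to 348 ± 88.7 FPKM, a call lost without the block (adjusted p = 0.0672).

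Among receptors for colony-stimulating and growth factors 4 of 16 rose and 5 fell, and 3 and 1 without the block. The falls numbered 3 without pair 2 and 2 without pair 3 or 4. Csf2rb, the gene of the shared chain of the GM-CSF and interleukin 3 receptors, rose from 48.4 ± 5.16 to 77.5 ± 13.6 FPKM. Its close paralog Csf2rb2 rose from 34.7 ± 4.37 to 64.8 ± 4.61 FPKM, and the split between them is uncertain. Nrp1, a coreceptor gene for semaphorins and VEGF, fell from 125 ± 11.5 to 84.2 ± 9.75 FPKM. Of 19 SOCS, JAK and STAT genes 5 rose and 6 fell, and 2 and 0 without the block. Without pair 3 or 4 there were 3 rises, and without pair 1 or 3 there were 2 falls and without pair 2 or 4 there were 3 falls. Jak2, the kinase gene that serves those receptors, rose from 22.3 ± 1.80 to 44.4 ± 2.85 FPKM, and Socs6, an adaptor gene of the SOCS family, from 18.5 ± 1.67 to 31.7 ± 7.41. Of 20 genes for decay of cytokine mRNAs 5 rose and 4 fell, and 2 and 2 without the block. Zc3h12a, the ribonuclease Regnase-1, rose from 16.2 ± 1.01 to 22.5 ± 1.01 FPKM, and Zfp36, tristetraprolin, fell from 364 ± 33.2 to 283 ± 25.0. Of 11 circadian clock genes 3 rose and 2 fell, and 1 and 2 without the block. Leaving out pair 3 or 4 gave 1 rise. Those that fell were Per1 and Nfil3, from 23.1 ± 1.89 to 14.8 ± 1.28 and from 117 ± 4.99 to 79.8 ± 5.86 FPKM. In the Notch and Wnt pathways Ctnnb1, β-catenin, rose from 218 ± 9.87 to 303 ± 5.55 FPKM, and Rbpj, the DNA-binding partner of Notch, fell from 88.6 ± 9.97 to 61.0 ± 11.2.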
